A study of Nothobranchius furzeri with 12 samples.

Results

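Among the genes that are abundant in the brain of the turquoise killifish Nothobranchius furzeri, 7 were at least 3 times as abundant in its skin. They were chosen from 23546 gene identifiers by their CPM, the count of a gene per 1000000 reads in genes of its library. The rule asked for a brain median of at least 300 CPM, a skin median of at least 3 times the brain median, and a ratio of the highest to the lowest skin library below 10. Brain levels were taken from 6 libraries and skin levels from 5. The difference between brain and skin is therefore what the rule used, and it is described below with no test.

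The fish carried the strain label MZM-0410 (MZM-0401 in the series' design text) and were 39 weeks old. Brain and skin were sequenced in 6 libraries each, with 1 library per fish and tissue, and the labels name no treatment. Fish 8, 38, 41 and 46 gave a brain and a skin library to the rule, fish 6 and 24 a brain library and fish 12 a skin library. The remaining library, labelled skin of fish 6, was left out of the rule because it resembled brain, and it is reported apart.

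Brain is made of neurons, glia and vessels. The skin of a bony fish is made of an epidermis with mucous cells over a dermis with scales, fibroblasts and pigment cells. Messenger RNAs for protein synthesis, the cytoskeleton and energy supply are among the most abundant in most tissues, and each tissue adds abundant messages of its own cell types. To which kind the 7 genes belong is not known here. Of the 23546 identifiers, 0 matched a RefSeq table of 38438 genes of the assembly NfurGRZ-RIMD1, so names, functions, positions and sequences are not given, and the labelled tissues were not checked against named markers. Identifiers are printed for 2 genes, and the other 5 are told apart by the length of their gene models, so that the 840-base gene is the one with a model of 840 bases. These are whole tissues, in which fewer cells of a type and less RNA per cell cannot be told apart.

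Brain libraries held 17.6 to 22.7 M reads in genes and the 5 skin libraries 9.10 to 27.1 M. The lowest count of any of the 7 genes in any library was 5099 reads, for which counting error alone gives a coefficient of variation of 1.4%. For the library labelled skin of fish 6, median levels were 93.2% of brain over 2174 brain-enriched genes and 8.81% of skin over 540 skin-enriched genes. Skin of fish 41 also stood apart, with brain-enriched genes at 2.73% and skin-enriched genes at 57.9%, against 0.424 to 0.909% and 98.7 to 102% in the other 4 skins.

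The 7 genes were a small part of the abundant brain genes. A brain median of at least 300 CPM was reached by 451 genes. Of these, 331 were lower in skin than in brain, 113 had a skin median of 1 to 3 times the brain median, and 7 reached the limit of 3. The limit on the spread between skins removed none of the 7. Over all 23212 genes with a count, 12.3% had a skin median of at least 3 times the brain median.

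**Figure D1:**
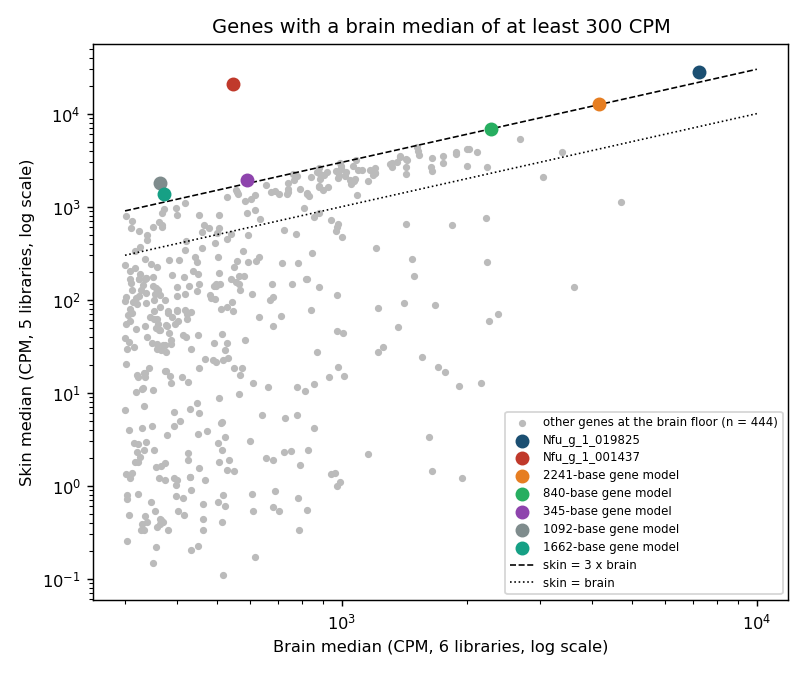
Skin median against brain median in CPM, both on log scales, for the 451 genes with a brain median of at least 300 CPM; the dashed line is a ratio of 3 and the dotted line a ratio of 1. Nfu_g_1_001437 lies far above the dashed line, and the other 6 genes, at ratios of 3.01 to 4.87, lie along the upper edge of a band of genes with ratios of 2 to 3.

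Nfu_g_1_019825 had the highest level per length of the 7 in skin. Its gene model had 2314 bases. In brain its level was 6543 CPM in the lowest library, a median of 7253 and 8195 in the highest. In skin it was 28943 CPM in fish 8, 27862 in fish 12, 24576 in fish 38, 36016 in fish 41 and 22434 in fish 46. The tissues did not overlap, and the lowest skin was 2.74 times the highest brain. The skin median was 3.84 times the brain median. It ranked first by CPM in all 6 brains and between 1 and 4 in the 5 skins, so that it was near the top of both tissues. Per length, its median was 3134 RPKM (reads scaled to gene model length and library total) in brain and 12041 RPKM in skin, the second highest RPKM of all genes in skin.

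Nfu_g_1_001437 stood apart from the other 6. Its brain level was 464 CPM in the lowest library, a median of 546 and 587 in the highest. Its skin level was 15352 CPM in fish 8, 13128 in fish 12, 20738 in fish 38, 22986 in fish 41 and 25540 in fish 46. The skin median was 38 times the brain median, while the other 6 genes had ratios of 3.01 to 4.87. It ranked 198 by median CPM in brain and 3 in skin. Its gene model, with 8522 bases, was the longest of the 7. Per length it was at 64.0 RPKM in brain, rank 1007 of all genes, and at 2433 RPKM in skin, rank 67. Its place among the abundant brain genes was thus higher by read share than per length.

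The 2241-base gene was the third most abundant by CPM in every brain library. Its brain level was 3723 CPM in the lowest library, a median of 4171 and 4432 in the highest. In skin it was at 12707 CPM in fish 8, 13503 in fish 12, 8115 in fish 38, 16944 in fish 41 and 9088 in fish 46. Its ratio of medians was 3.05, close to the limit. The skins of fish 38 and 46 were well below the other 3, and the lowest skin was 1.83 times the highest brain.

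The 840-base gene had the second highest skin level per length of the 7, with a median of 8193 RPKM, and 2718 RPKM in brain. In CPM its brain libraries lay between 2060 and 2444 with a median of 2283. Its skin libraries were at 6693 CPM in fish 8, 7337 in fish 12, 6882 in fish 38, 11142 in fish 41 and 5661 in fish 46. The ratio of medians was 3.01, the smallest of the 7. Skin of fish 41 lay far above the other 4 skins, which were close together.

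The 345-base gene was the shortest. It was at 524 to 637 CPM in brain, with a median of 592. In skin it was at 1930 CPM in fish 8, 2064 in fish 12, 1717 in fish 38, 2918 in fish 41 and 1400 in fish 46. The order of the skins was that of fish 41, 12, 8, 38 and 46, and no skin overlapped a brain. Reads in genes fell in the same order, at 27.1, 23.5, 22.5, 14.9 and 9.10 M, and a link to depth was not tested. The ratio of medians was 3.26. Per length it reached 1716 RPKM in brain and 5595 RPKM in skin, above Nfu_g_1_001437 in each tissue although its CPM in skin was far lower.

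The 1092-base gene varied most in both tissues. It was at 301 to 512 CPM in brain, with a median of 365, and the brain of fish 6 was highest. In skin it was at 1776 CPM in fish 8, 3045 in fish 12, 1829 in fish 38, 669 in fish 41 and 1307 in fish 46. It was the only one of the 7 that was lowest in skin of fish 41, where the lowest skin came to 1.31 times the highest brain. The ratio of medians was 4.87.

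The 1662-base gene was at 290 to 403 CPM in brain, with a median of 372, and the brain of fish 41 was lowest. In skin it was at 1271 CPM in fish 8, 1507 in fish 12, 1374 in fish 38, 2087 in fish 41 and 1341 in fish 46. The ratio of medians was 3.70. Its 4 skins other than that of fish 41 lay within a narrow range, and the lowest skin was 3.15 times the highest brain.

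**Figure D2:**
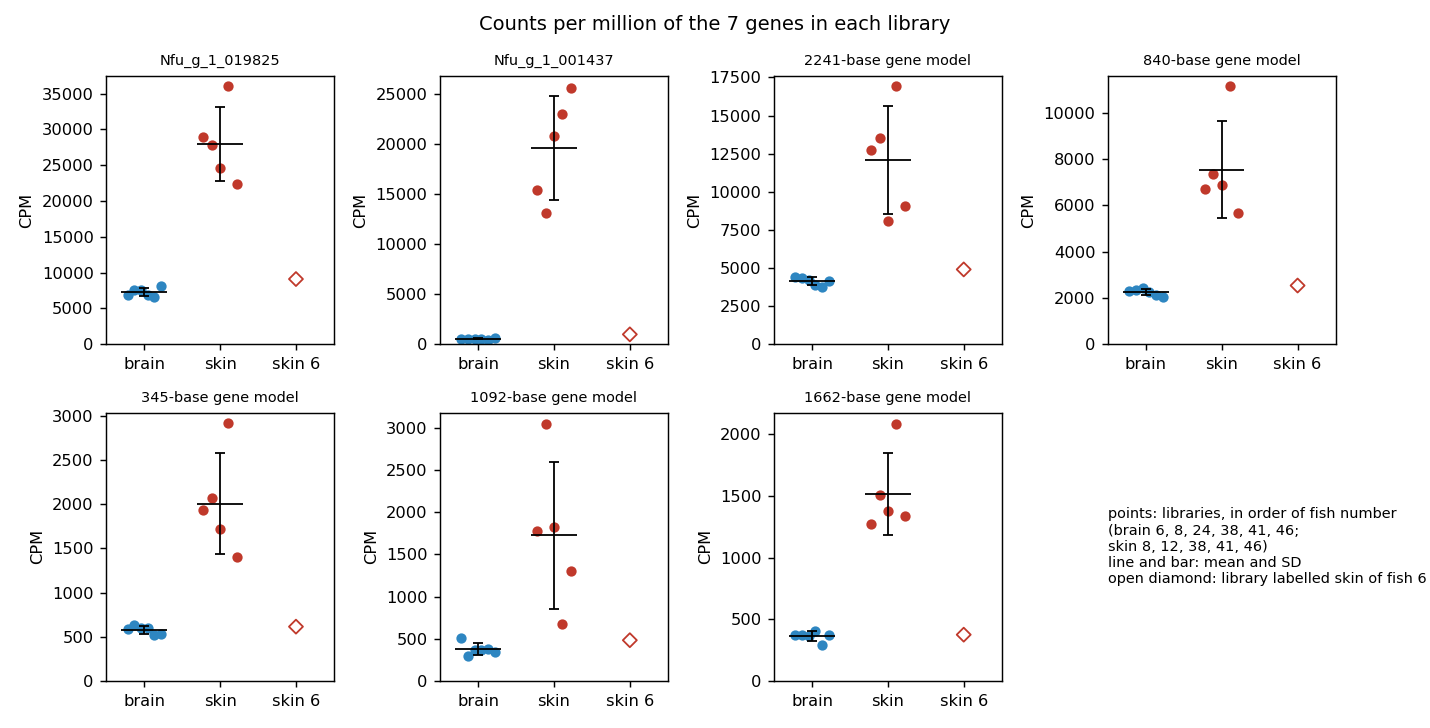
CPM of each of the 7 genes in 6 brain libraries, 5 skin libraries and the library labelled skin of fish 6, on a linear scale from 0, with the mean and SD of each tissue. Every skin point lies above every brain point in each panel, and the open diamond lies near the brain points.

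In all 7 genes every one of the 5 skin libraries was above every brain library. This was so for 12.5% of the 23212 genes with a count. The rule used this contrast, so nothing is read from the count. For Nfu_g_1_019825 the brain mean was 7282 ± 614 CPM (SD, n = 6) and the skin mean 27966 ± 5193 CPM (SD, n = 5). For Nfu_g_1_001437 they were 538 ± 42.7 CPM (SD, n = 6) and 19549 ± 5195 CPM (SD, n = 5). For the other 5 genes the ratio of the skin mean to the brain mean was 2.93 to 4.59.

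Together the 7 genes took 1.55 ± 0.0861% of the reads in genes in brain (SD, n = 6) and 7.24 ± 1.15% in the 5 skins (SD, n = 5). The brain libraries ranged from 1.41% in fish 41 to 1.62% in fish 46. Skin libraries of fish 8, 12, 38 and 46 lay between 6.52 and 6.87%, and that of fish 41 was at 9.28%. The mean over those 4 skins was 6.73 ± 0.161% (SD, n = 4). All 451 abundant brain genes together, the 7 included, took 47.3% in skin of fish 41 and 29.7 to 33.6% in those 4 skins. The make-up of the share of the 7 genes differed between tissues. Nfu_g_1_019825 gave a mean of 46.9% of the reads in the 7 genes in brain and 38.6% in skin. Nfu_g_1_001437 gave 3.46% in brain and 27.3% in skin. The 2241-base gene gave 26.6% and 16.5%.

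**Figure D3:**
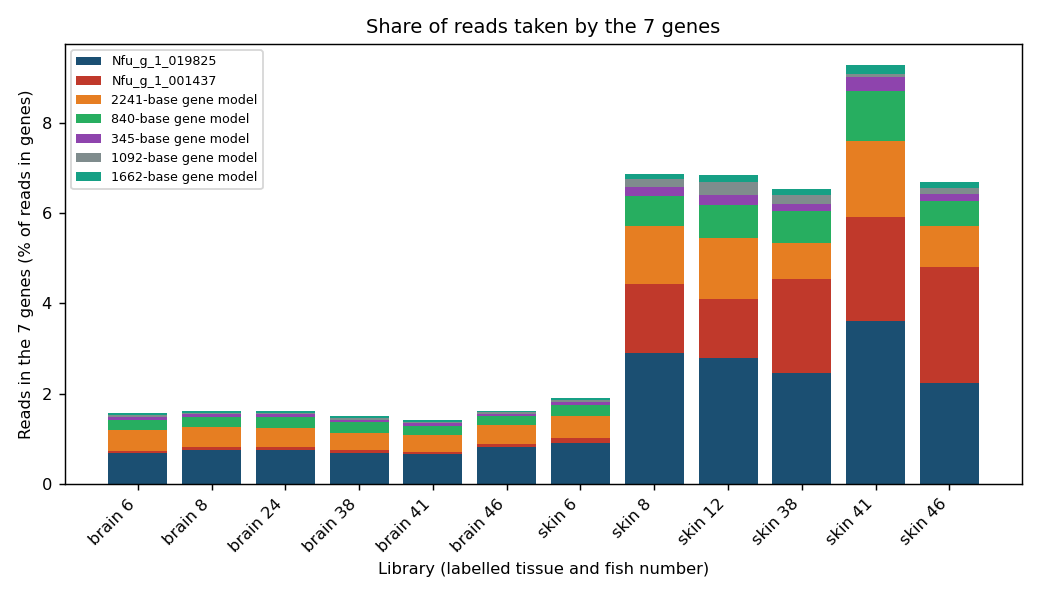
Share of the reads in genes that fell in the 7 genes, in percent, stacked by gene for each of the 12 libraries. Brain bars stand at 1.41 to 1.62%, the library labelled skin of fish 6 at 1.90%, and the other skins at 6.52 to 9.28%, with a broad segment of Nfu_g_1_001437 in these 5 skins and a thin one in brain.

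Proportions among the 7 genes within a library need no scaling to its total. Relative to Nfu_g_1_019825, Nfu_g_1_001437 stood at 0.0707 to 0.0803 in the brain libraries and at 0.471 to 1.14 in the skins, where it passed Nfu_g_1_019825 in fish 46 alone. The 2241-base gene stood at 0.507 to 0.646 in brain and 0.330 to 0.485 in skin. The 840-base gene stood at 0.251 to 0.338 in brain and 0.231 to 0.309 in skin, and these ranges overlapped. Of the 21 pairs of the 7 genes, 8 had proportions that did not overlap between brain and skin. Over the 73153 pairs of genes with the same brain floor and skin spread limit but a ratio below 3, and a count in every library, the share was 83.6%. The 8 comprised all 6 pairs with Nfu_g_1_001437, whose ratio of 38 against 3.01 to 4.87 fixes this, and 2 of the other 15. The rule sets no upper limit on the ratio, but those of the other 6 genes lay close together. Those of the 384 comparison genes were spread widely (interquartile range 0.0458 to 1.47). The 2 sets of pairs are thus unlike, and nothing is read from these counts. The narrowest range of the 21 pairs was that of the 840-base and 345-base genes. The shorter one had 0.246 to 0.273 of the reads of the longer in brain and 0.247 to 0.288 in skin. Their skin-to-brain ratios of 3.01 and 3.26 are close, which keeps the proportion alike in both tissues. The pair was picked from the data, so nothing is read from it.

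**Figure D4:**
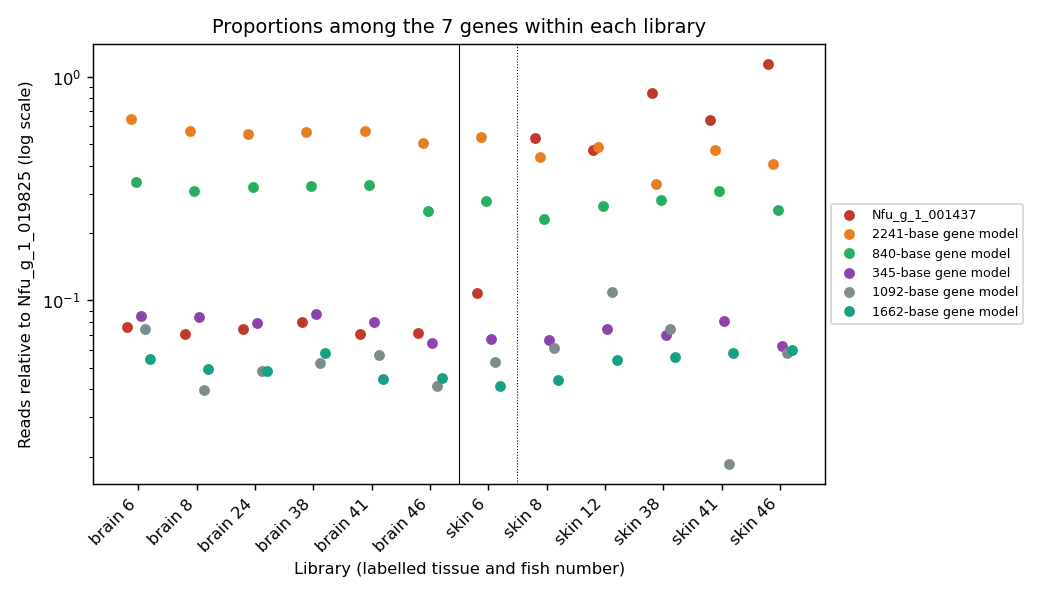
Reads of 6 genes relative to Nfu_g_1_019825 in each library, on a log scale; the solid line separates brain from skin, and the library labelled skin of fish 6 stands between the lines. Nfu_g_1_001437 moves from 0.0707 to 0.0803 in brain up to 0.471 to 1.14 in skin, and the 1092-base gene is lowest in skin of fish 41, at 0.0186.

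The spread between libraries was larger in skin for each of the 7 genes. The coefficient of variation was 6.23 to 19.0% in brain (median 7.94%) and 18.6 to 50.6% in skin (median 27.9%). The rule limited the skin spread and not the brain spread. A larger coefficient in skin was also found in 87.4% of the 23212 genes with a count. Of 384 genes with the same brain floor and skin spread limit and a ratio below 3, 381 had it, with medians of 6.66% in brain and 29.2% in skin. Of 56 genes with the same ratio and spread limits and at least 900 CPM in skin but less than 300 CPM in brain, 28 (50%) had it, with medians of 40.8% in brain and 42.9% in skin. In brain the 1092-base gene had the largest spread of the 7, with the highest library at 1.70 times the lowest, and the other 6 had 1.19 to 1.39 times.

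Skin of fish 41 was highest for 5 of the 7 genes, the exceptions being Nfu_g_1_001437, highest in fish 46, and the 1092-base gene, highest in fish 12. Against the median of the other 4 skins, the 5 genes were 1.37 to 1.64 times as high in skin of fish 41. The same library was highest for 68.2% of the 384 comparison genes, a share that pools unlike groups. In CPM it was highest for 71.0% of the abundant brain genes with a skin-to-brain ratio below 0.5. The share was 17.6% at ratios of 0.5 to 1, 74.5% at 1 to 2 and 96.6% at 2 to 3. It was 71.4% for the 7 genes and 70.7% for all 451 abundant brain genes. The rule used the levels of the 7 genes in this library, and they are few, so nothing is read from their share. With DESeq2 size factors 3 of the 7, and 57.0% of the 384, were highest in skin of fish 41. It was highest for 19.6% of the 56 genes with a lower brain level. By the rule all 7 genes had a lower median in brain than in skin, with skin-to-brain ratios of 3.01 to 38. The part of the brain-like content of skin of fish 41, given above, in these values was not tested.

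The brain of fish 41 was lowest for 5 of the 7 genes, at 0.777 to 0.888 times the median of the other 5 brains. In CPM it was lowest for 12.8% of the 384 comparison genes, 12.4% of the 451 abundant brain genes and 19.6% of the 56 genes with a lower brain level. With DESeq2 size factors it was lowest for 4 of the 7 and for 9.11% of the 384. These are counts over few genes that share libraries, and no test was made.

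Ratios within a fish could be formed for the 4 fish with both tissues in the rule. Of the 28 combinations of gene and fish, 19 had a skin-to-brain ratio of at least 3. The rule used these same libraries and this limit, so nothing is read from the counts in this paragraph. Nfu_g_1_001437 had 28.6 in fish 8, 37.4 in fish 38, 49.6 in fish 41 and 43.5 in fish 46. The 1662-base gene had 3.40, 3.41, 7.19 and 3.63 in the same order. These 2 genes reached 3 in all 4 fish. Nfu_g_1_019825 had 3.81, 3.56, 5.50 and 2.74. The 2241-base gene reached 3 in fish 41 alone, with 2.92, 2.08, 4.55 and 2.19. Fish 41 had the largest ratio for 6 of the 7 genes, and its ratio was smallest, at 1.79, for the 1092-base gene. Within-fish ratios were not formed for other genes, so no share stands beside the count of 6 and nothing is read from it. Skin of fish 41 was highest for 70.7% of the 451 abundant brain genes. The brain of fish 41, by which these ratios divide, was lowest for 5 of the 7 genes and 12.4% of the 451. It was also lowest for 13 of the 58 abundant brain genes with a ratio of 2 to 3.

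The library labelled skin of fish 6 took no part in the choice of the genes. In it Nfu_g_1_019825 was at 9104 CPM and Nfu_g_1_001437 at 983 CPM. The 2241-, 840-, 345-, 1092- and 1662-base genes were at 4906, 2536, 614, 483 and 375 CPM. All 7 were below every other skin library, as were 14.9% of the 23212 genes with a count, 25.8% of the 384 comparison genes and 98.2% of the 56 genes with a lower brain level. Since the genes were chosen for high skin levels and the library for its likeness to brain, nothing is read from this count. All 7 were above the brain median, by a factor of 1.01 to 1.8, as were 42.6%, 40.6% and 100% of the same sets. Against the brain of fish 6 itself, the 1092-base gene was lower, at 0.943 times its level there (483 against 512 CPM). The excess of that gene over the brain median was thus not seen within the fish. The 1662-base gene was at 375 against 374 CPM, and the remaining genes were at 1.05 to 1.89 times their level in that brain. Of the 7, 4 were above every brain library. The share of genes above each of the 6 brains was 17.9% of the 23212 genes with a count, 15.1% of the 384 comparison genes and 96.4% of the 56 genes with a lower brain level. On a linear scale from the brain median, at 0%, to the skin median, at 100%, the 7 genes lay at 0.342 to 8.98% with a median of 5.49%. The 56 genes lay at a median of 4.12% (interquartile range 2.14 to 6.90%). This is 1 library, so no test was made.

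The gene models of the 7 had a median of 1662 bases, between 345 and 8522. The median was 2324 bases over all genes with a count and 3386 bases over the 384 comparison genes. Of the 7, 6 were shorter than each of these, but the models of 2314 and 2241 bases lay near the first. The 56 genes with a lower brain level had a median of 2495 bases (interquartile range 1210 to 4623). Length did not enter the rule directly, but CPM counts reads and so favours long models. Within the 451 abundant brain genes, length fell with the skin-to-brain ratio up to the limit. The median length was 5104 bases in 297 genes with a ratio below 0.5, 3168 in 34 with 0.5 to 1, 1716 in 55 with 1 to 2, and 916 in 58 with 2 to 3. In the last group 53.4% of the models were shorter than 1000 bases, and 2 of the 7 genes were.

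The limit of 3 ran through a dense group of genes. Just inside it lay ratios of 3.01, 3.05 and 3.26, and just outside 2.98, 2.97, 2.95, 2.92 and 2.90. The first gene outside had 883 CPM in brain and 2634 CPM in skin. The brain floor passed through thinner ground, with 365 and 372 CPM just inside and 237, 233 and 221 CPM just outside among genes that met the other limits. The largest ratio of highest to lowest skin among the 7 was 4.55, far from its limit of 10. Single libraries moved the number of genes that met the rule. It was 11 without skin of fish 8, 11 without skin of fish 38 and 12 without skin of fish 46. With any other library left out it was 5 to 10. Of the 7 genes, 6 still met the rule without skin of fish 8 or without brain of fish 38, 41 or 46. Without skin of fish 12 or of fish 41, 5 of the 7 did. Over all 6 libraries labelled skin the number of genes was 4.

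How many genes reach the limit depends on the scaling. A CPM is a share of a library, so that a library with a larger share in some genes has a smaller one in others. Over all genes with a count, the median log2 ratio of skin to brain was -0.91 with totals, -0.10 with TMM (trimmed mean of M-values) factors and -0.09 with DESeq2 size factors. Both factors raise the ratios, with a median over the 451 abundant brain genes of 0.188 with totals, 0.412 with TMM and 0.415 with DESeq2. That all 7 genes kept a ratio of at least 3 was therefore fixed in advance. With TMM factors, Nfu_g_1_019825 had a ratio of 7.83 and Nfu_g_1_001437 of 84.6, and the other 5 had 6.00 to 9.55. The limit of 3 was then reached by 104 of the 451 genes, and by 105 with DESeq2 size factors. Of the 7, 5 were still among the first 7 by ratio in each case. The lowest of the 7 ranked 15 with TMM factors and 17 with DESeq2 size factors.

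**Figure D5:**
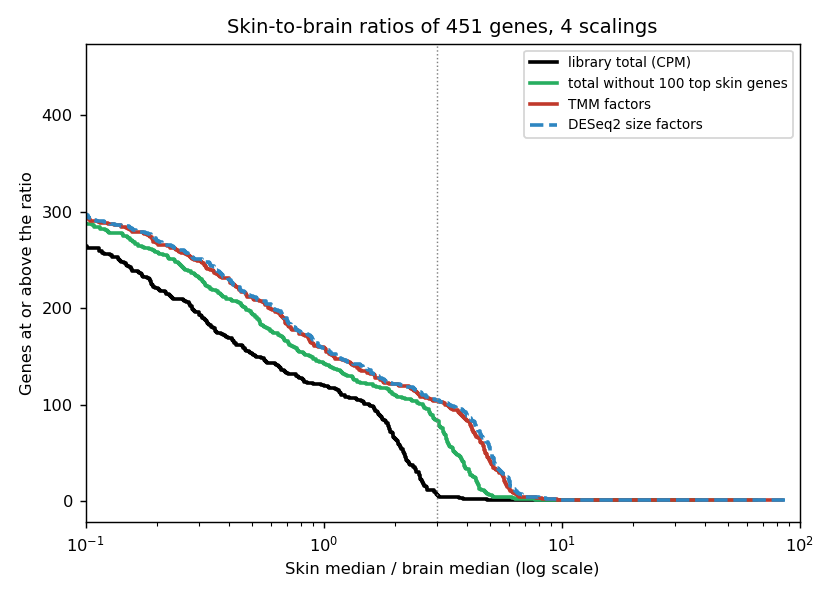
Number of the 451 abundant brain genes whose skin-to-brain ratio of medians is at or above the value on the log-scaled x axis, under 4 scalings; the dotted line marks a ratio of 3. With library totals 7 genes reach the line, and with TMM factors 104.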

How the data were processed

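RNA of brain and skin was made into libraries with a TruSeq RNA kit, per the labels' protocols. The submitters' processing notes list featureCounts 1.4.3-p1, TopHat2 2.0.6 and CASAVA 1.8.4 without saying what each did. Genome build, annotation and the handling of reads with several matches are not stated in the labels or headers, so near-identical and overlapping genes may share reads. The authors deposited 1 table of raw read counts and of RPKM values per gene and library, per the file headers. In 23212 genes with a count, count, RPKM and library total gave 1 gene model length within a relative tolerance of 0.001, and 334 genes had no count.

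CPM, medians, ratios and lengths were computed with Python 3.11.15 and pandas 2.3.3, TMM factors with edgeR 4.0.16 and size factors with DESeq2 1.42.0. The ratio of highest to lowest skin was formed after adding 0.5 CPM. Genes enriched in a tissue had a median of at least 10 CPM there and a 20-fold lower one in the other tissue, over the 11 libraries of the rule. Fish are the replicates, by the fish numbers in the labels. The genes and comparison sets were chosen with earlier results of these data known. Identifiers were printed for the gene with the highest skin median RPKM and the gene with the largest ratio. Since the rule used the contrast between the tissues, no p-value was computed.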

Additional observations from a re-analysis of the deposited data

Results flagged for a closer look

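In 5 of 24 groups of 5 or 6 values, a single library lay far from the rest. Chance flags about 1 in 20 groups, a rate that does not apply to the groups that hold the library labelled skin of fish 6, since the choice of genes and of libraries sets its value apart. The groups share genes and libraries. The share of reads in the 7 genes was 9.28% in skin of fish 41, against 6.52 to 6.87% in the other 4 skins. All 451 abundant brain genes together, the 7 included, took 47.3% there, against 29.7 to 33.6% in the other 4 skins. The high share in this library was thus not particular to the 7 genes. Among the 6 libraries labelled skin the share in the 7 genes was 1.90% in that of fish 6, against 6.52 to 9.28%. The 1662-base gene was at 2087 CPM in skin of fish 41, against 1271 to 1507 in the other 4 skins. Its gap there, at 0.711 of the range, and that of the share in fish 6, at 0.627, passed the limits narrowly. The 1662-base gene was at 290 CPM in the brain of fish 41, against 368 to 403 in the other 5 brains. The 1092-base gene was at 512 CPM in the brain of fish 6, against 301 to 373 in the others.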

How the results depend on the processing

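The number of genes meeting the rule changed with most settings. It was 90 with TMM-scaled CPM and 90 with DESeq2 size factors, and 5 of the 7 genes were among them in each case. The 1092-base and 1662-base genes were lost there because their brain medians fell to 264 and 268 TMM-scaled CPM, below the floor. With totals that leave out the 100 top skin genes it was 88, with all 7 among them. Such totals raise every level, and the median ratio of the 451 abundant brain genes rose from 0.188 to 0.316. That the 7 were kept was thus largely set in advance. The number was 4 with all 6 libraries labelled skin and 13 with means in place of medians (6 of the 7 kept). It was 65 with a ratio limit of 2, 1 with a limit of 5 and 14 with a brain floor of 200 CPM. A floor of 500 CPM gave 5, and a skin spread limit of 5 or none gave 7. Leaving out 1 library at a time gave 5 to 12 genes. Without skin of fish 8 it was 11, without that of fish 38 it was 11 and without that of fish 46 it was 12. Leaving out both libraries of fish 41, a choice made after seeing the data, gave 5.

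The median ratio of the 7 genes was 3.70 and moved to 7.83 with TMM factors, 8.0 with DESeq2 size factors and 6.19 with totals without the 100 top skin genes. It was 3.62 with all 6 libraries labelled skin, 3.52 within fish, and 3.62 to 3.88 with 1 library left out. The share of reads in the 7 genes was 1.54 to 1.58% in brain and 6.73 to 7.42% in skin with 1 library left out, and 6.35% in skin as labelled. The median gene model length was 882 bases under TMM and under DESeq2 scaling, 1044 without the 100 top skin genes in the totals, 954 with a ratio limit of 2, 8522 with a limit of 5, 1952 with a floor of 200 CPM and 2241 with a floor of 500 CPM. The library labelled skin of fish 6 lay at a median of 2.41% of the way from brain to skin with TMM factors, 2.63% with DESeq2 size factors and 7.80% from the brain of fish 41 alone. No test between the tissues was made, paired or unpaired. With at least 5099 reads per gene and library, counting error was below the spread between libraries.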

Other observations

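Below the limit lay 58 abundant brain genes whose skin median was 2 to 3 times the brain median. They took 5.03 to 5.84% of the reads in the brain libraries, 11.7 to 14.3% in the skins of fish 8, 12, 38 and 46 and 20.4% in skin of fish 41. In CPM 56 of the 58 (96.6%) were highest in skin of fish 41. The share was 70.7% of all 451 abundant brain genes and 68.2% of the 384 comparison genes, and both sets include the 58. The 58 were in skin of fish 41 at a median of 1.57 times the median of the other 4 skins. With TMM factors 54 were highest there and with DESeq2 size factors 44, against 66.4% and 57.0% of the 384 comparison genes. Models shorter than 1000 bases made up 53.4% of the 58 and 28.6% of the 7 genes. They made up 41.8% of the abundant brain genes with a ratio of 1 to 2, 17.6% at 0.5 to 1 and 7.07% of the 297 below 0.5. The group of 58 was noticed in the data and was not tested. Skin of fish 41 is the library with brain-enriched genes at 2.73% of their brain level, and the 58 were lower in brain than in skin. The part of that content in these values was not tested.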
